A study of Mus musculus with 2 samples.

Results

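Secreted Wnt antagonists and feedback inhibitors of the Wnt pathway are described here in the interdigital tissue of mouse hind limbs. The genes are Dkk1, Dkk2, Dkk3, Sfrp1, Sfrp2, Frzb, Wif1, Notum, Kremen1 and Nkd1, 10 of 18193 genes that a probe set of the array names alone. They were chosen by name, with Dkk1 first because an earlier reading of the same arrays had found it far above wild type, so its ratio is a description and supports nothing further. A probe set is a group of short oligonucleotides that together read a transcript, and these genes have 22 of the 34945 probe sets that name exactly 1 gene. All 10 genes were measured, meaning that the brightest probe set read above an intensity floor of 78.1 on at least 1 array, and here on both.

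The arrays compare wild-type B6 mice with mice homozygous for Hammer toe, a mutation that leaves soft tissue between the digits, at stage E13.5 after natural mating. Both groups are interdigital regions of the hind limb, labelled ID2 and ID3 and dissected in cold PBS, and the labels name no agent or transgene in either. The values come from 1 array per genotype, so there is no test, no p-value and no error between samples. The study speaks of 3 sets of 5 littermates, 15 embryos per genotype, but how these relate to the array is not stated. B6 is named as background for the wild type only, so strain and the Hammer toe genotype cannot be told apart. In such tissue samples, more cells of a type and more RNA per cell cannot be told apart either.

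Wnt ligands bind a Frizzled receptor together with the co-receptors Lrp5 or Lrp6, and this stabilises beta-catenin, which then activates target genes with factors of the TCF/LEF family. Antagonists act at different steps. The Dickkopf proteins Dkk1 and Dkk2 bind the co-receptor, and Kremen1 removes the co-receptor from the surface together with a bound Dickkopf protein. Secreted Frizzled-related proteins and Wif1 bind the ligand, Notum removes the lipid of the ligand, and Nkd1 acts inside the cell on Dishevelled. In the limb, Dkk1 is known for its role in digit separation, since mice that lack it have fused and extra digits.

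Dkk1 is itself known as a target of Wnt signalling in several tissues, so the bases just before its start site are shown beside those of Dkk2, its relative that read lower in Hammer toe. Both are RefSeq sequences of build GRCm38.p6, 250 bases up to the start, written 5′ to 3′ on the strand of the gene. Capitals mark matches to the TCF/LEF motif ATCAAAG or to its variants, which are AACAAAG and also TACAAAG and finally TTCAAAG, searched on both strands with overlapping matches each counted. The first sequence lies at chr19:30549497-30549746 on the minus strand and the second at chr3:132085042-132085291 on the plus strand.
Dkk1: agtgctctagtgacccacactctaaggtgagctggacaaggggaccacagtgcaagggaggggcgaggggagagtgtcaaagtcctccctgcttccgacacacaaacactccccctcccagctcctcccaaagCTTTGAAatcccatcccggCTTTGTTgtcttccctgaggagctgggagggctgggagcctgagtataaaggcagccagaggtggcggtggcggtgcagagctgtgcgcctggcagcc
Dkk2: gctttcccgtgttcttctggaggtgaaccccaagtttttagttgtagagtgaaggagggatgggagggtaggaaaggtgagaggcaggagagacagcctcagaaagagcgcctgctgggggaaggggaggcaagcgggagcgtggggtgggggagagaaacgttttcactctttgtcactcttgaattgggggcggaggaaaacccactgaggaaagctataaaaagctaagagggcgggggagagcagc

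The Dkk1 window held 2 matches, both read on the opposite strand, the reverse complement of TTCAAAG at -117 to -111 and that of AACAAAG at -98 to -92 relative to the start site. At least 1 match stood in 14.8% of all 32851 such windows, and 2 or more in 1.43%. Windows were at hand for 6 of the 10 genes, and those of Dkk2, Sfrp2, Frzb, Wif1 and Nkd1 held none. A match is a string of letters and says nothing of binding, and no match says only that these letters are not in the window.

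Dkk1 stood alone among the antagonists. Its brightest probe set gave 741 on the wild-type array and 1873 on the Hammer toe array, 2.53-fold higher, and its second probe set read 181 and 493, 2.72-fold higher. The 2 probe sets were made from different sequence records, and their log2 ratios of 1.34 and 1.44 differed by 0.10. Over all 5544 genes with 2 or more measured probe sets, the median range between probe sets of a gene was 0.25 on the log2 scale, and in 57.5% of them the probe sets lay on both sides of no difference. In 14 of these genes, or 0.253%, every measured probe set was higher by 1.5-fold or more on the Hammer toe array, and Dkk1 was among them.

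Read from the brightest probe set, Dkk1 had the 9th highest log2 ratio of 11621 measured genes. Of the 4694 genes whose brighter array read above 1000, 95% lay within 1.24-fold, and 4 were as high as Dkk1 or higher, Dkk1 included. Of the 9071 probe sets with a brighter array between 200 and 1000, the second probe set of Dkk1 was among the 4 highest. Over all measured genes the median log2 ratio was 0.01. Probe sets of the same gene differed with an SD of 0.21 on the log2 scale (5134 genes), while the SD over 16 spiked control probe sets was 0.06. None of these spreads contains the variation between embryos or litters.

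**Figure D1:**
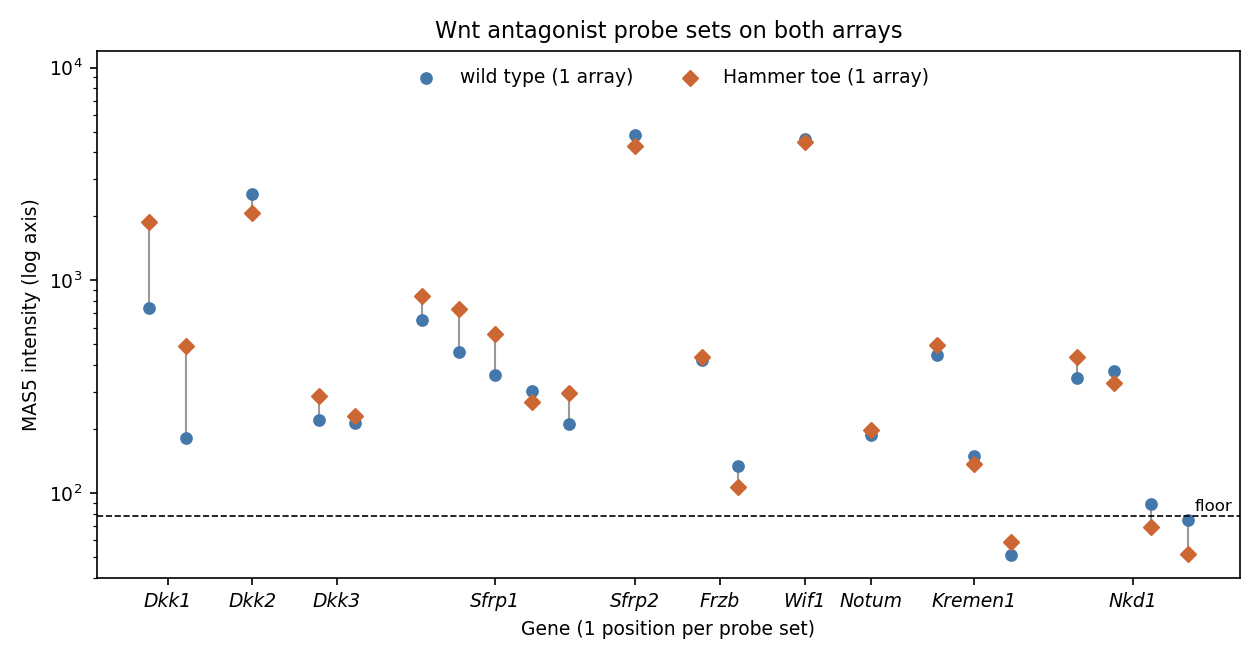
Intensity on a log axis of all 22 probe sets of the 10 antagonist genes, with 1 position per probe set, circles for the wild-type array, diamonds for the Hammer toe array and a dashed line at the floor of 78.1. Both Dkk1 probe sets are far higher in Hammer toe (741 to 1873 and 181 to 493), while the points of most other probe sets lie close together.

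The other Dickkopf genes did not share this difference. Dkk2, a Dickkopf protein that binds the same co-receptor, gave 2536 on the wild-type array and 2074 on the Hammer toe array on its only probe set, 1.22-fold lower. Dkk3, a divergent relative that is not a classical Wnt antagonist, read 220 and 287 on the brighter of its probe sets, 1.30-fold higher, and 213 and 230 on the other, 1.08-fold higher. Both Dkk3 probe sets were made from the same sequence record, so they are not independent readings. On the log2 scale the 3 Dickkopf genes thus stood at 1.34, -0.29 and 0.38, and Dkk1 lay 0.96 above Dkk3, the next highest of all 10 genes.

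Among the secreted Frizzled-related proteins, which bind Wnt ligands outside the cell, Sfrp1 was higher in Hammer toe on 4 of its 5 probe sets. The brightest gave 650 on the wild-type array and 844 on the Hammer toe array, 1.30-fold higher. The next read 461 and 737, 1.60-fold higher, and another 358 and 561, 1.56-fold higher. These last 2 were the only probe sets of the other 9 genes at 1.5-fold or more, of 18 measured. Among all 20995 measured probe sets that name 1 gene, 3.9% were that far apart in either direction.

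A further Sfrp1 probe set gave 212 on the wild-type array and 295 on the Hammer toe array, 1.39-fold higher. The fifth, of the _x_at type that can bind related transcripts, read 303 and 268, 1.13-fold lower. The probe sets at log2 ratios of 0.67, 0.65 and 0.47 share a sequence record, so they are not independent readings. The 5 log2 ratios spanned 0.85, against a median span of 0.41 in the 233 genes with 5 measured probe sets, of which 17 spanned as much as Sfrp1 or more. The size of the Sfrp1 difference therefore depended on the probe set.

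Sfrp2 and Frzb stayed near wild type. Sfrp2, expressed in limb mesenchyme, gave 4847 on the wild-type array and 4274 on the Hammer toe array on its only probe set, 1.13-fold lower. Frzb, also called Sfrp3 and known from cartilage, read 420 and 436 on its brighter probe set, 1.04-fold higher. Its second probe set, made from the same record, read 134 and 107, 1.25-fold lower, so Frzb has no settled direction.

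Wif1 and Notum read nearly alike on both arrays. Wif1, which binds Wnt ligands through its WIF domain, gave 4602 on the wild-type array and 4481 on the Hammer toe array, 1.03-fold lower. Notum, a secreted carboxylesterase and a feedback inhibitor induced by Wnt signalling, read 188 and 198, 1.05-fold higher. Each has 1 probe set, of the _a_at type that reads several transcripts of the gene.

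The receptor and the intracellular inhibitor gave mixed readings. Kremen1, the Dickkopf receptor, gave 444 on the wild-type array and 497 on the Hammer toe array on its brightest probe set, 1.12-fold higher, and 149 and 138 on the second, 1.08-fold lower. Its remaining probe set stayed under the floor throughout. Nkd1, another feedback inhibitor induced by Wnt signalling, read 350 and 436 on its brightest probe set, 1.25-fold higher. A second Nkd1 probe set of nearly the same brightness read 375 and 329, 1.14-fold lower, and a fainter probe set read 88.7 and 69.5, under the floor in Hammer toe and so at least 1.14-fold lower. The last Nkd1 probe set stayed under the floor throughout, and the direction of Nkd1 is therefore not settled.

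**Figure D2:**
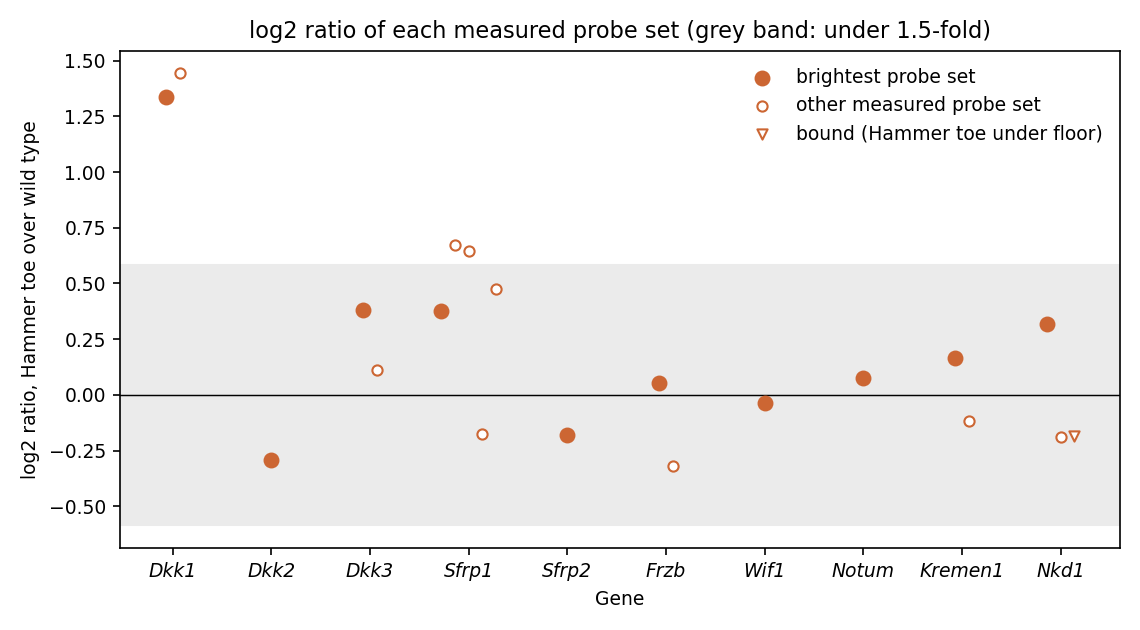
log2 ratio, Hammer toe over wild type, of the 20 measured probe sets by gene, with filled points for the brightest probe set, open points for the others, a triangle for the bound and a grey band for differences under 1.5-fold. Outside the band are both Dkk1 probe sets, at 1.34 and 1.44, and 2 Sfrp1 probe sets, at 0.67 and 0.65.

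By size, 1 of the 10 genes, Dkk1, was 1.5-fold or more apart on its brightest probe set, against 3.56% of all measured genes in either direction and 2.17% in the direction of Dkk1. Since Dkk1 was chosen for this difference, nothing is read from that share. Of the other 9 genes, 6 were higher and 3 lower, from -0.29 for Dkk2 to 0.38 for Dkk3. Their median log2 ratio was 0.08, against 0.01 over all measured genes, and Dkk1 lay 1.26 above it. The median of the 9 had no firm sign, being -0.02 when the gene's probe sets were averaged and -0.11 once the floor was moved to the 75th percentile of intensities, which left 5 of the 10 genes measured.

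Read from the brightest probe set and against genes of like brightness, each of these 9 lay inside the range that held 95% of genes and Dkk1 lay outside it. By construction this range leaves out 5.01% of measured genes. For Dkk2 the difference of 1.22-fold came near the limit of 1.24-fold above an intensity of 1000. For Dkk3, Sfrp1 and Nkd1 the limit between 200 and 1000 was 1.45-fold. Among single probe sets of that brightness the limit was also 1.45-fold. The Sfrp1 probe sets at 1.60-fold and 1.56-fold lay outside it.

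**Figure D3:**
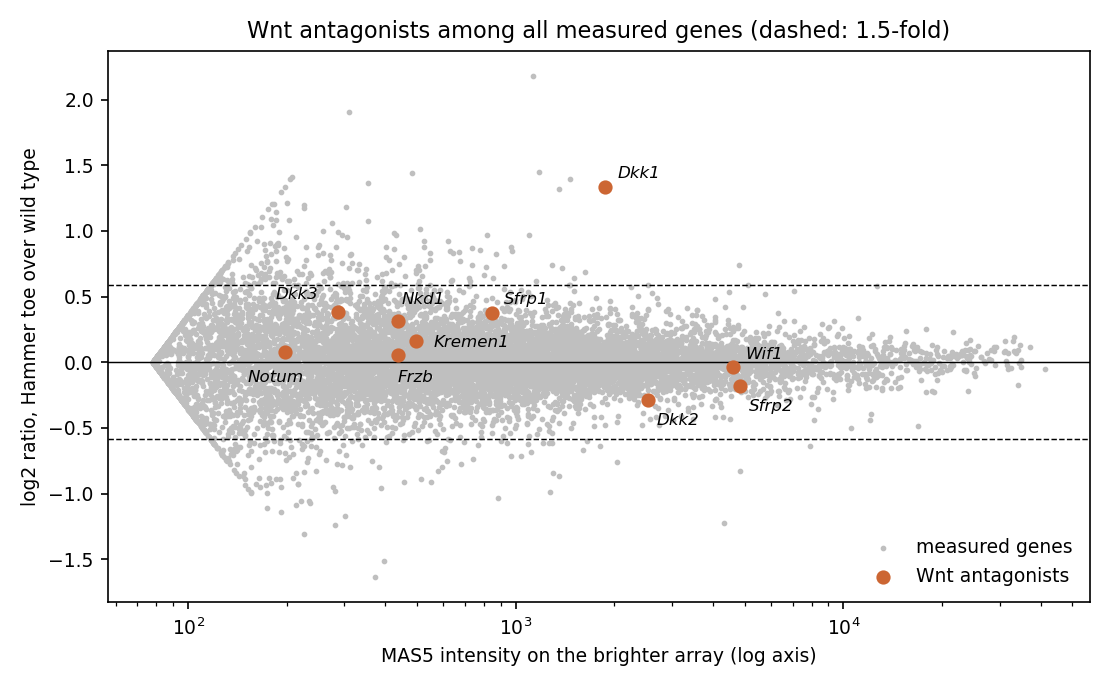
log2 ratio, Hammer toe over wild type, against the intensity on the brighter array (log axis) for all 11621 measured genes, each read from its brightest probe set, with the 10 antagonists as large named points and dashed lines at 1.5-fold. Dkk1, at 1.34, stands above the cloud at its brightness, and the other 9 lie within it.

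Few genes of similar brightness had a ratio like that of Dkk1. Likeness was taken as the smallest difference in log2 ratio among 4266 other genes above the floor on both arrays and within 1 log2 unit of the mean intensity of Dkk1, over the 2 arrays. The nearest was Sbspon, a secreted matrix protein, at 2.49-fold higher, and its other probe set was at a log2 ratio of 0.83. Next came the small matrix proteoglycan genes Lum at 2.64-fold and Ogn at 2.73-fold. Agtr2, an angiotensin receptor, was 1.96-fold higher and Lratd2 1.83-fold, already 0.37 and 0.46 below Dkk1 on the log2 scale.

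Other inhibitors of the pathway lay on both sides of wild type. Of 25 further antagonists and inhibitors, 18 were measured, 7 higher and 11 lower, where 48.3% of all measured genes were lower, with a median log2 ratio of -0.18 and none at 1.5-fold or more, where 3.56% of all measured genes were. Apcdd1, a membrane protein that inhibits Wnt signalling at the receptor, gave 3092 on the wild-type array and 4470 on the Hammer toe array, 1.45-fold higher, and its 5 measured probe sets ranged from 0.36 to 0.53 on the log2 scale. Draxin, a secreted guidance protein that also inhibits Wnt signalling, read 232 and 160, 1.44-fold lower, but its second probe set was at -0.06. Nkd2, the relative of Nkd1, had a log2 ratio of -0.34, with its 4 probe sets from -0.80 to -0.07.

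Several close relatives gave no reading. Neither array showed Dkk4, Sfrp4 or Sfrp5 above the floor, and Kremen2, named alone by none of the probe sets, was not analysed here. When each gene was averaged over its probe sets, 8 of the 18 inhibitors were higher and 10 lower, with a median of -0.08.

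The ligands and receptors on which these antagonists act were mostly close to wild type. Of 14 measured genes for Wnt ligands and their secretion, 8 were higher and 6 lower, with a median of 0.07. Over all measured genes, 51.7% were higher. In the list 1 gene was 1.5-fold or more apart, against 3.56% of all measured genes. Averaging over probe sets gave 7 higher and 7 lower, a median of -0.01 and 2 genes at 1.5-fold or more, so the list has no firm sign. The gene at 1.5-fold or more was Wnt10a, a ligand of ectoderm, which read 107 and 195, 1.82-fold higher on its only probe set. Among measured genes this dim, with a brighter array up to 200, 9.61% were 1.5-fold or more apart. Wnt5a, the mesenchymal ligand of the distal limb, gave 12446 on the wild-type array and 11873 on the Hammer toe array, a log2 ratio of -0.07.

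Of 18 measured receptors and R-spondins, 12 were higher and 6 lower. The counts were 11 and 7 after median centring or quantile normalization, and 10 and 8 with probe sets averaged. The median of the list was 0.05, and 51.7% of all measured genes were higher. Lrp5 and Lrp6, the co-receptors bound by Dkk1, stood at log2 ratios of 0.21 and -0.25, and the second Lrp6 probe set at 0.01. Lgr6, an R-spondin receptor, read 107 and 171, 1.60-fold higher, and its second probe set was at 0.92. Rspo3, a secreted protein that enhances Wnt signalling, read 461 and 617, 1.34-fold higher.

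Wnt transduction genes had a median of 0.02 over 17 measured members, 9 higher and 8 lower, where 51.7% of all measured genes were higher. The sign of this median turned, to -0.02 after quantile normalization, -0.05 with probe sets averaged (7 higher and 10 lower) and -0.09 without the probe sets of types _x_at, _s_at and _a_at. Ctnnb1, which encodes beta-catenin, stood at 0.02 by its brightest probe set, with another as low as -0.51. Tle4, a corepressor of TCF/LEF factors, was furthest from wild type at -0.42, and Tle2, of the same family, stood at 0.23.

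Genes known as Wnt targets were mostly a little higher in Hammer toe. Of 10 measured targets, 9 were higher and 1 lower, against 51.7% of all measured genes that were higher, and the median was 0.15, or 0.08 with probe sets averaged. None reached 1.5-fold. Axin2, a negative feedback gene and widely used readout of the pathway, gave 1024 on the wild-type array and 1137 on the Hammer toe array, and its log2 ratios were 0.15 and 0.02. Lef1, a transcription factor and target, stood at 0.15 and its second probe set at -0.07. Tnfrsf19 and Myc were furthest, at 0.54 and 0.53, and the 3 probe sets of Tnfrsf19 ranged from -0.05 to 0.54. Notum and Nkd1 belong to both lists, so the targets are not wholly separate from the antagonists.

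Transcripts of the BMP pathway, which acts beside Wnt signalling in the interdigit, stayed near wild type. All 14 BMP ligands, antagonists and targets listed were measured, 3 higher and 11 lower, where 48.3% of all measured genes were lower. The median of the list was -0.08. None was at 1.5-fold or more on its brightest probe set, where 3.56% of all measured genes were. The ligands Bmp2, Bmp4 and Bmp7 stood at -0.19, -0.27 and -0.17, and the target Msx2 at 0.05. Nog, a BMP antagonist, was at least 1.33-fold lower, and Id4, a target, was 1.27-fold higher, with probe sets from -0.27 to 0.35. A second probe set of Smad7, of the _x_at type, was at -1.71.

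**Figure D4:**
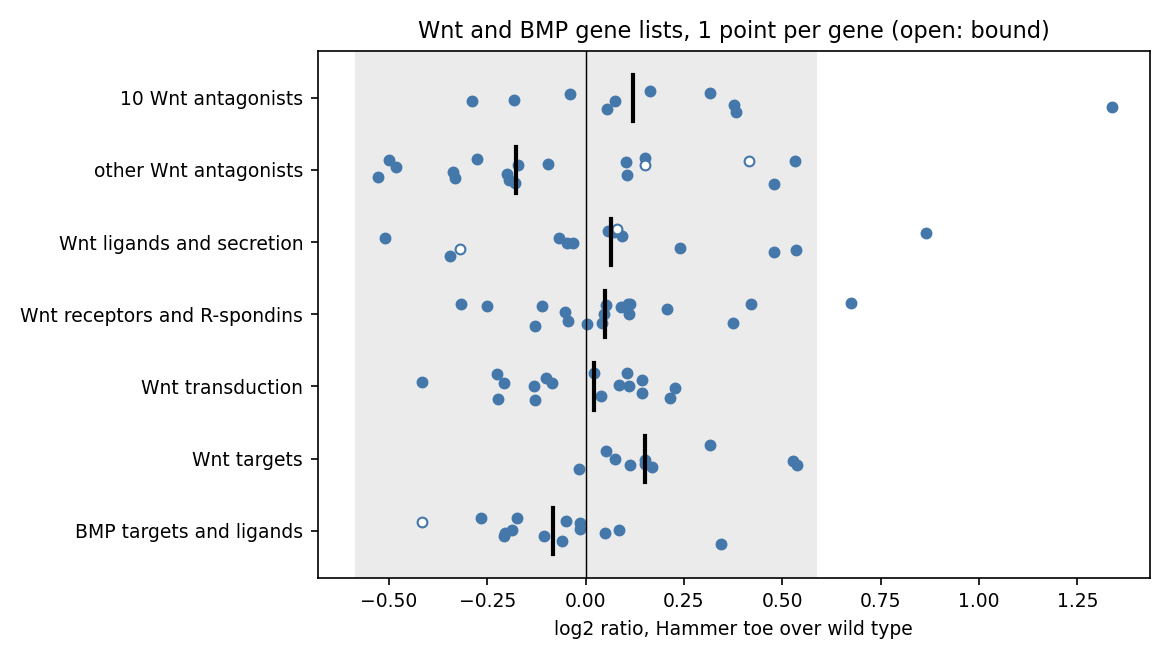
log2 ratio, Hammer toe over wild type, of every measured gene in 7 lists, with 1 point per gene, open points for bounds, black bars for list medians and a grey band for differences under 1.5-fold. Outside the band lie Dkk1 at 1.34, Wnt10a at 0.87 and Lgr6 at 0.67. Of all measured genes, 3.56% were that far apart in either direction.

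The 10 interdigital mesenchyme genes, among them Aldh1a2 and Hoxd13, all exceeded the floor in each genotype. This cannot test the tissue label, since 10985 of the 18193 named genes did so too. Among them were all 12 macrophage and all 10 endothelial genes listed. Of the 10 mesenchyme genes, 3 were higher and 7 lower, with a median log2 ratio of -0.12. Tbx3 and Tbx2 were higher, at 0.80 and 0.70, and Hoxa13 was lower, at -0.41. Markers of other cell types also differed between the arrays, some lists mostly higher and others mostly lower. Their part in the Dkk1 difference was not tested. Over all measured genes, 51.7% were higher and 48.3% lower. Surface ectoderm genes were higher in 12 of 14 (summed intensity 14038 in wild type and 17965 in Hammer toe), with Krt19 at least 2.53-fold higher. With probe sets averaged, 11 of the 14 were higher. Epcam and Krt8 each had a probe set that was lower, at -0.71 and -0.32. Macrophage genes were higher in 11 of 12 (3675 and 4734), with Aif1, Mrc1 and C1qa at 0.79, 0.59 and 0.59. Muscle genes were higher in 6 of 8 measured (1352 and 1977), with Myh3 and Actc1 at 1.09 and 0.97. The lower muscle genes were Myod1, at -0.23, and Des, at least 1.23-fold lower. A further 4 listed muscle genes were not above the floor on either array. Cartilage genes were lower in 13 of 14 (16744 and 10916), with Col9a3, Sox5, Col9a2 and Col2a1 at -0.99, -0.96, -0.88 and -0.67. Erythroid genes were lower in 6 of 7 (58148 and 49971), or in 5 with probe sets averaged, with Hbb-bh1 at -0.82. Hbb-y, the brightest of them, stood at -0.04, and Hbb-b2 was higher, at 0.28. Joint and tendon genes, a list that holds Sfrp2 and Dkk3, were higher in 7 of 12 (12116 and 12584), with a median of 0.08. Lum, Kera, Egr1 and Dcn stood at 1.40, 0.99, 0.87 and 0.74. The 5 lower genes were Gdf5, Erg, Mkx, Sfrp2 and Wnt9a, at -0.09, -0.21, -0.13, -0.18 and -0.51. Apical ridge genes were higher in 3 of 9 (4067 and 3896), with Sp8 at 0.43 and Fgf8 at -0.30. Endothelial genes were higher in 5 of 10 (5063 and 5482) and lower in 5, with a median of -0.01. Esam and Egfl7 stood at 0.55 and 0.44, and Pecam1 and Tek at -0.28 and -0.07. The Y-linked genes Eif2s3y, Uty and Kdm5d were higher, at 0.77, 0.65 and 0.48, and Xist lower, at -0.44, and the part of sex in the Dkk1 difference was not tested.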

How the data were processed

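Interdigital RNA (250 ng per labelling, per the labels' protocols) was read on 1 array per genotype. The deposited intensities, 1 per probe set on a linear scale, are MAS5 values that the authors computed (Affymetrix Expression Console is the program named by the submitters' processing notes), with versions not given in the sources used here. After trimming 2% from both ends, the mean was 500.003 on either array and the medians were 78.1 and 78.5, so a shift shared by most transcripts cannot be seen.

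Of 45101 probe sets, 64 controls stayed out. GEO's platform annotation, with symbols updated through RefSeq gene IDs of GRCm38.p6 (all 10 antagonists matched), gave 1 gene to 34945, several to 932 and none to 9160 of the others. The floor was the median of all non-control values, 78.1; lower values were set to it, log2 ratios were then taken, and a ratio with 1 array under the floor is a bound, written "at least". The brightest probe set stood for a gene, which was called different by size, at 1.5-fold or more, with 11621 of 18193 genes measured. A simulation changed 50 genes per size and direction, all of them well above the floor on both arrays. Of those changed 2-fold, 50 higher and 48 lower genes were called. Dimmer genes and false calls were not covered. Python 3.11.15, numpy 2.4.6, pandas 2.3.3 and statsmodels 0.14.6 were used.

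The members and lists were chosen with earlier results of these data known. Named genes are all members, up to 4 genes per further list that passed 1.5-fold (the furthest 2 where none did), a few fixed Wnt and BMP genes and the 5 genes nearest to Dkk1 in ratio; further values are examples chosen after they were seen, as was the comparison with genes of like brightness. Alternative settings changed the scaling (medians set equal, quantile normalization, or lowess with span 0.3), the floor (none, the 25th or the 75th percentile, or a pseudocount of the same size), the probe sets (averaged, or without types _x_at, _s_at and _a_at) and the size called (2-fold).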

Additional observations from a re-analysis of the deposited data

How the results depend on the processing

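The log2 ratio of Dkk1 lay between 1.25 and 1.39 under the 9 alternatives of scaling, floor and probe set, and no other of the measured antagonists was at 1.5-fold or more under any of them, while Dkk1 was under each and passed 2-fold in the main setting. Its distance from the median of the others lay between 1.17 and 1.45. Of 74 values of the other antagonists, 2 had the opposite sign, both with the mean over probe sets: Nkd1 at -0.02 and Frzb at -0.13. The median of the others ranged from -0.11 to 0.16. The count of all genes at 1.5-fold or more, 414, was 4665 with no floor, 2260 when the floor was the 25th percentile, 46 when it was the 75th, 200 with a pseudocount and 43 at 2-fold. The genes measured numbered 18193, 15722 and 7026 under the 3 other floors and 11621 with the pseudocount, as in the main setting. No paired analysis was possible because each genotype has 1 array and the labels carry no replicate numbers. Signal over background limits the dim probe sets, and the number of arrays limits every value.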

Other observations

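Beside Dkk1, a few other Wnt genes lay outside the range of 95% of genes of like brightness, and all were picked after their values were seen. Of 18 other Wnt inhibitors, 2 were above it and 1 below, where 5.01% of all measured genes lie outside. Sostdc1, a secreted inhibitor of Wnt and BMP signalling, gave 2918 on the wild-type array and 4070 on the Hammer toe array, 1.39-fold higher, with its 2 probe sets at log2 ratios of 0.48 and 0.52. Apcdd1, described above, also lay above the range. Below it lay Shisa2, which retains Frizzled and FGF receptors inside the cell, from 1381 to 1097, with probe sets at -0.33 and -0.29. Shisa2 was 1.26-fold lower, near the limit of 1.24-fold.

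The ligand gene Wnt7b, expressed in ectoderm, read 662 and 959, 1.45-fold higher, and its second probe set was at 0.65. On the brightest probe set Wnt7b was barely past the limit, at 1.4479-fold against 1.4477-fold. Lgr4, a receptor for R-spondins, read 3672 and 2948, 1.25-fold lower on its only measured probe set, just past the limit of 1.24-fold. Its relative Lgr6, described above, was higher but lay just inside the range for its brightness, at 1.595-fold against a limit of 1.603-fold. The second probe set of Lgr6 was further from wild type, at a log2 ratio of 0.92. Wnt10a, Tnfrsf19 and Tle4, also described above, lay outside the range for theirs. With 1 array per genotype these values have no error between samples.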
